A study of Sus scrofa with 4 samples.

Results

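NOTCH receptors, their jagged ligands and the targets HES1 and HEY1 were measured at single-cell resolution in 2 libraries of porcine pancreatic ductal organoids (PPDO) and 2 libraries of primary pig pancreas. The 7 genes were chosen by name, namely the receptors NOTCH1, NOTCH2 and NOTCH3, the ligands JAG1 and JAG2, and the targets HES1 and HEY1, out of 30282 gene identifiers in each count matrix. Each gene was present as 2 features, a gene model and an extension of its 3' end, and both were summed. The extensions held up to 13.3% of the UMIs (unique molecular identifiers, each marking a single captured molecule) of a gene in a library.

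NOTCH signalling passes between neighbouring cells. A ligand on the surface of a cell binds a receptor on the next cell, the receptor is cut by ADAM proteases and then by γ-secretase, and the released intracellular domain enters the nucleus, where it joins RBPJ and a Mastermind protein to switch on target genes such as those of the HES and HEY families. In the developing pancreas the pathway is known for holding back endocrine differentiation and for keeping progenitors and duct cells in their state, and in blood vessels it is known for arterial identity and for the mural cells around the vessel.

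In the RefSeq annotation of Sscrofa11.1, matched by symbol, NOTCH3 (ENSSSCG00000025176) is at chr2:62364507-62402348, HEY1 (ENSSSCG00000006159) at chr4:56859640-56863807, NOTCH2 (ENSSSCG00000006709) at chr4:100951522-101152348, HES1 (ENSSSCG00000031356) at chr13:131135970-131137865 and JAG1 (ENSSSCG00000007067) at chr17:19591248-19629659. All are protein-coding genes, as are NOTCH1 (ENSSSCG00000038509) and JAG2 (ENSSSCG00000002555).

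PPDO are duct-derived cultures, here from a late postnatal and an adult pig line at passage 4 and 7, grown with WNT3a, R-spondin, noggin, FGF10, EGF and the TGFβ receptor inhibitor A83-01. The labels do not say which line gave which library. Primary pancreas came from 2 late postnatal German landrace pigs, 1 wild type and 1 carrying an INS-eGFP reporter driven by the insulin promoter. Per the study's methods, ducts were enriched by hand in the former, whereas DBA+ and INS-eGFP sorted cells were added to the suspension of the latter, so the shares of cell classes cannot be compared between the animals. All libraries were of live sorted cells. The 2 primary pancreata were processed on different days. PPDO and tissue differ in culture and animal at once, and these cannot be told apart.

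The 4 libraries held 366263520 and 316018482 UMIs in PPDO and 87043513 and 138928395 in primary pancreas, and 4261 to 8885 cells per library were kept. Pairs of libraries shared 10 to 23 barcodes. Primary cells were clustered without the 7 genes and the other pathway genes and named from marker lists, which gave ductal-like, endothelial-like, stellate-like, immune-like, acinar-like, endocrine-like and Schwann-like classes. Ductal-like cells numbered 2310 in primary pancreas 1 and 1188 in primary pancreas 2, and no ductal-like cluster had at least 50 cells in each library. The summed level of 7 ductal markers was 25331 and 29528 CPM (UMIs of a gene scaled to the same total in every sum of cells) in ductal-like cells against 970 and 867 CPM in PPDO. The keratin gene KRT7 came nearest, at 389 and 384 CPM in PPDO against 568 and 596 CPM, and SLC4A4, a bicarbonate transporter of duct cells, was at 418 and 327 CPM against 22199 and 25902 CPM. CFTR, SCTR and SOX9 were each below 4 CPM in PPDO, and no non-ductal class compared had a ductal sum above 811 CPM. The study describes most cells of these lines as having moved to a less mature ductal state at these passages. It found CFTR and SOX9 protein in PPDO by staining at passage 4 or earlier. A list of 7 genes of basal and stratified epithelium held KRT5, KRT15, TP63, ITGA6, KRTDAP, SPINK5 and KLK7. It summed to 8226 and 11493 CPM in PPDO and to 144 and 95.7 CPM in ductal-like cells. Each of the 7 ductal markers thus had a lower level in both PPDO libraries than in ductal-like cells, and the sum of the basal and stratified list was higher. The immune and Schwann lists were higher in PPDO too, at 4835 and 4542 CPM against 1093 and 1112 CPM and at 3644 and 3506 CPM against 846 and 1094 CPM. Almost all of this was CD74, at 4811 and 4523 CPM, and ERBB3, at 3636 and 3499 CPM, while the immune-defining PTPRC was at most 0.419 CPM and the Schwann marker CDH19 at most 0.0266 CPM in PPDO. The part of these lists in the results was not tested. The name PPDO is kept here as the label of the culture.

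**Figure D1:**
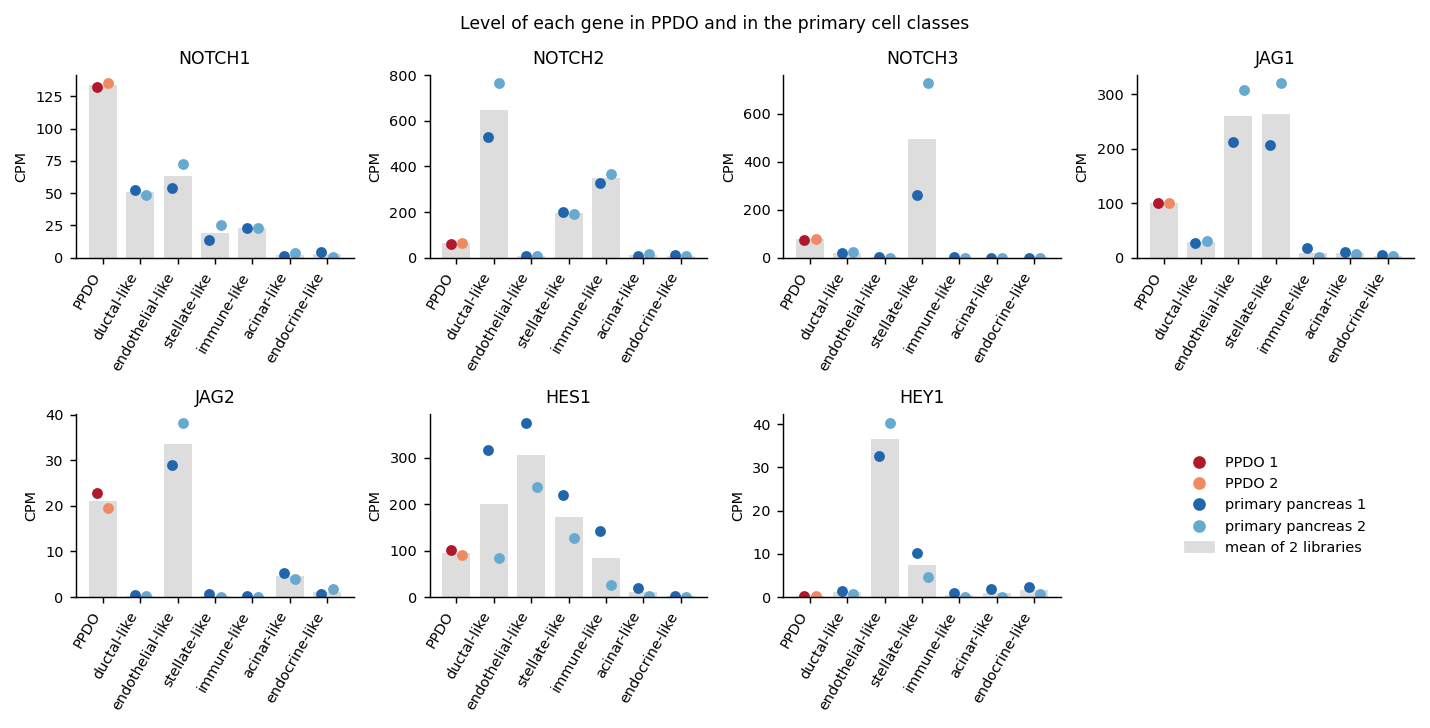
Level (CPM, linear axes from 0, with an axis of its own for each gene) of the 7 genes in PPDO and in 6 primary cell classes, with a point for each library and a bar for the mean of 2 libraries. NOTCH1 was highest in PPDO, NOTCH2 in ductal-like, NOTCH3 in stellate-like, and JAG2, HES1 and HEY1 in endothelial-like cells, whereas JAG1 was about as high in stellate-like as in endothelial-like cells.

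The comparison of PPDO with ductal-like cells asks how far the culture keeps the pathway profile of the cell type it is named for. Of the 7 genes, 4 were higher in PPDO (NOTCH1, NOTCH3, JAG1 and JAG2), 2 were lower (NOTCH2 and HEY1) and HES1 passed no threshold. Over all 23557 genes tested in the same edgeR fit on library sums, 43.7% were called (22.8% higher and 20.9% lower), so a call alone is common here and the size of each change matters more. The median log2 fold change of the 7 genes was 1.85 and that of all genes 0.00675. When sums were scaled by library totals alone, a choice added after the data were seen, the median of all genes moved to -0.45, and the calls went from 5364 higher and 4920 lower to 3234 higher and 6987 lower. The 7 genes kept their directions and calls under that scaling, with fold changes that were lower by about that shift.

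NOTCH1, the receptor best known from T cells and many epithelia, was at 132 and 135 CPM in PPDO and at 52.7 and 48.5 CPM in ductal-like cells of primary pancreas 1 and 2. The groups did not overlap. The log2 fold change was 1.85 (SE 0.18, edgeR FDR 0.00243). The PPDO values are over all cells of the culture, and a PPDO cluster described below (cluster 8) had 50.7 and 73.2 CPM. Endothelial-like cells came next after PPDO at 53.9 and 72.2 CPM, and their difference from ductal-like cells was not called (log2 0.42, SE 0.48, edgeR FDR 0.548). Immune-like cells had 22.8 CPM in each library, stellate-like cells 13.3 and 25.3, and these neighbours overlapped. Acinar-like and endocrine-like cells had at most 4.73 CPM, which was lower than in ductal-like cells (log2 -2.96, edgeR FDR 0.00984, and log2 -5.31, edgeR FDR 6.79e-05). The acinar-like call was lost when primary cells were scaled within library (edgeR FDR 0.0886).

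NOTCH2, a receptor that is abundant in the biliary and pancreatic duct lineage, went the other way. It was at 531 and 765 CPM in ductal-like cells and at 60.6 and 65.5 CPM in PPDO. Every ductal-like value was far above every PPDO value, and the log2 fold change was -2.88 (SE 0.18, edgeR FDR 0.000926). Ductal-like cells also had the highest level among the primary classes, followed by immune-like cells at 327 and 369 CPM, stellate-like cells at 199.6 and 194 CPM and PPDO, and none of these neighbours in the order overlapped. Immune-like cells were called lower than ductal-like cells (log2 -0.84, SE 0.30, edgeR FDR 0.0367), a call that was lost under 5 of 9 alternatives, with FDR from 0.0163 to 0.127 over all 9, and that was not made when neighbours were first searched approximately. In endothelial-like cells NOTCH2 was nearly absent, at 5.98 and 5.82 CPM (log2 -6.64, SE 0.39, edgeR FDR 2.15e-07), and endocrine-like and acinar-like cells lay between 7.14 and 18.2 CPM.

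NOTCH2 was uneven within the immune-like class. Cluster 11, led by the myeloid genes AIF1, FCER1G and MARCO, had 563 and 530 CPM, and cluster 14, led by CD163, MRC1 and C1QA, had 348 CPM in primary pancreas 1. Cluster 9, led by the lymphoid genes GNLY, CCL5 and CD3E, had 86.0 and 139 CPM. The myeloid clusters thus lay above the lymphoid cluster in each library with a value. Cluster 11 was above the 531 CPM of ductal-like cells in primary pancreas 1 and below their 765 CPM in primary pancreas 2.

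NOTCH3, the receptor of vascular smooth muscle and pericytes, was at 74.8 and 79.3 CPM in PPDO and at 18.3 and 21.9 CPM in ductal-like cells. The groups did not overlap, and the log2 fold change was 2.40 (SE 0.14, edgeR FDR 0.000836). The highest level was in stellate-like cells, at 262 and 728 CPM (log2 4.37 over ductal-like cells, SE 0.54, edgeR FDR 3.32e-05). Primary pancreas 2 gave the higher value there from 48 cells. The other classes compared were near 0. Endothelial-like cells had 3.15 and 0.685 CPM, and immune-like, acinar-like and endocrine-like cells were at or below 0.859 CPM, with at most 5, 1 and 18 UMIs in a library.

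Within the stellate-like class NOTCH3 was higher in the contractile cluster. Cluster 6, led by the contractile genes MYH11, ACTA2, RGS5 and TAGLN, had 459 and 865 CPM, whereas cluster 10, led by the matrix genes DCN and LUM, had 35.2 CPM in primary pancreas 1. Cluster 10 had 7 cells in primary pancreas 2 and gave no value there. Cluster 6 held 438 of 752 stellate-like cells in primary pancreas 1 and 41 of 48 in primary pancreas 2. NOTCH3 within cluster 6 was also higher in primary pancreas 2. The part of the cluster shares in the class level was not tested. NOTCH2 had the opposite order in primary pancreas 1, at 139 CPM in cluster 6 and 269.7 CPM in cluster 10.

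JAG1, a ligand that many epithelia, endothelia and mural cells present, was at 100.2 and 101 CPM in PPDO and at 26.7 and 30.2 CPM in ductal-like cells. The log2 fold change was 2.28 (SE 0.13, edgeR FDR 0.000815), with no overlap between the groups. Stellate-like cells at 206 and 320 CPM and endothelial-like cells at 212 and 308 CPM overlapped with each other and lay above PPDO in each library. Both exceeded ductal-like cells (log2 3.02, edgeR FDR 0.000981, and log2 3.30, edgeR FDR 0.000404). Endocrine-like cells were lowest at 4.73 and 3.24 CPM (log2 -2.03, edgeR FDR 0.0173), a call that DESeq2 did not make (FDR 0.0587).

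JAG2, the other jagged ligand, gave the widest contrast. It was at 22.8 and 19.6 CPM in PPDO, from 6859 and 5136 UMIs, and at 0.341 and 0.118 CPM in ductal-like cells, from 15 and 3 UMIs. The ductal-like values overlapped with those of stellate-like (0.599 and 0 CPM) and immune-like cells (0.172 and 0 CPM), and they are read as background. The log2 fold change of 6.83 (SE 0.51, edgeR FDR 0.00141) is therefore a difference from background, and it moved to 8.01 without primary pancreas 1, to 6.27 without primary pancreas 2 and to 5.98 without the ductal-like cluster 0 described with HES1. Endothelial-like cells were above PPDO at 29.1 and 38.3 CPM (log2 7.13 over ductal-like cells, edgeR FDR 1.37e-06). JAG2 was also called higher than in ductal-like cells in acinar-like cells, at 5.23 and 3.93 CPM from 8 UMIs in each library, and in endocrine-like cells, at 0.591 and 1.75 CPM from 1 and 149 UMIs. The endocrine-like value of primary pancreas 1 was no higher than the stellate-like background value there. Within each library the endocrine-like difference was log2 0.96 in primary pancreas 1 and 3.71 in primary pancreas 2, without a test.

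Ligand levels differed among the endothelial-like clusters. Cluster 18, led by SEMA3G, GJA5 and BMX, genes known from arteries, had 469 CPM of JAG1, 112 CPM of JAG2 and 127 CPM of HEY1 in primary pancreas 1. Cluster 4, led by FLT1 and KDR, had 175, 15.8 and 24.2 CPM of the same genes, and cluster 12, led by SELP, had 163, 15.9 and 3.05 CPM. The cluster with the arterial genes was thus highest for all 3 genes in that library. In primary pancreas 2 it had 14 cells and gave no value, and cluster 16, led by BTNL9 and SOX18, had 278, 29.5 and 39.6 CPM.

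HES1, a transcriptional repressor and the classical NOTCH target, was the only member that was not called between PPDO and ductal-like cells (log2 -0.68, SE 0.69, edgeR FDR 0.461). It was at 101 and 91.1 CPM in PPDO. Ductal-like cells had 318 CPM in primary pancreas 1 and 84.2 CPM in primary pancreas 2, so the groups overlapped. The direction of the difference changed with the primary library left in. Without primary pancreas 1 the log2 fold change of HES1 was 0.72, and without primary pancreas 2 it was -1.41. Each of these fits leaves 1 primary library, so its spread comes from the 2 PPDO libraries alone and its calls are not used.

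HES1 was higher in primary pancreas 1 than in primary pancreas 2 in 6 of 6 classes. HEY1 was higher there in 5 of 6, but endothelial-like cells, where it was highest, went the other way (32.6 and 40.4 CPM). Its acinar-like and immune-like values rested on 3 and 5 UMIs in primary pancreas 1 and 0 in primary pancreas 2. The other members were higher in primary pancreas 1 in 3 or 4 of 6 classes. These directions were counted for the members alone, and the share over all genes was not computed. For HES1, endothelial-like cells had 376 and 238 CPM, stellate-like cells 220 and 127 CPM, immune-like cells 142 and 24.8 CPM, acinar-like cells 20.3 and 2.46 CPM and endocrine-like cells 2.37 and 0.529 CPM. A list of early response genes, which includes FOS, FOSB, EGR1 and ATF3 and is known to rise when cells are dissociated or stimulated, moved with it. The 10 genes matched summed to 7659 CPM in ductal-like cells of primary pancreas 1, to 912 CPM in those of primary pancreas 2 and to 2237 and 2141 CPM in PPDO, and none was at 0.

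Among the ductal-like clusters HES1 and the early response sum moved together, with gaps. Cluster 0, led by AADAC, OSGIN1 and EREG, the last of which is on the early response list itself, held 1296 cells of primary pancreas 1 and 17 of primary pancreas 2, and in the former it had 386 CPM of HES1 and 9765 CPM of early response genes. Cluster 8 of the same library, led by DSP, SOX9 and CFTR, had 90.2 and 509 CPM, and cluster 1 of primary pancreas 2, with 1107 cells there, had 85.5 and 899 CPM. Cluster 24 of primary pancreas 2, with 64 cells, had 29.9 CPM of HES1, from 23 UMIs, at an early response sum of 447 CPM. Cluster 0 had the highest HES1 level of these clusters, so that leaving it out could only lower the ductal-like level. Without cluster 0, a choice made after the data were seen, the log2 fold change of HES1 between PPDO and ductal-like cells became 0.40 (SE 0.23, edgeR FDR 0.211), and its direction turned. Without it NOTCH1 was at 1.76, NOTCH2 at -2.91, NOTCH3 at 2.44 and JAG1 at 2.32, all still called. The part of the early response genes in the HES1 level was not tested.

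**Figure D2:**
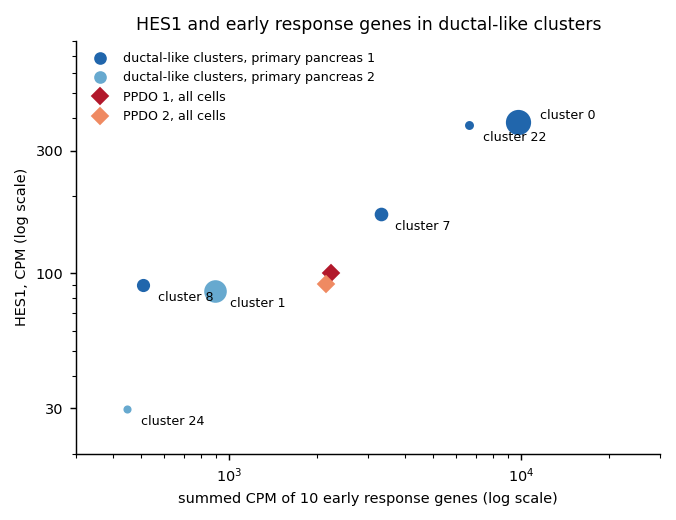
HES1 (CPM, log axis) against the summed level of 10 early response genes (CPM, log axis) in the 6 ductal-like clusters, coloured by library with point size growing with the number of cells, and in all cells of each PPDO library (diamonds). HES1 ran from 29.9 CPM in cluster 24 to 386 CPM in cluster 0, and PPDO lay at 91.1 and 101 CPM.

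Across the classes compared, HES1 was highest in endothelial-like cells. Ductal-like cells overlapped with them, stellate-like cells overlapped with ductal-like cells, and PPDO overlapped with immune-like cells. Neither the endothelial-like nor the stellate-like difference from ductal-like cells was called (log2 1.05, edgeR FDR 0.103, and log2 -0.15, edgeR FDR 0.864). HES1 was lower in immune-like (log2 -1.32, edgeR FDR 0.0425, lost under 5 of 9 alternatives with FDR up to 0.404), acinar-like (log2 -2.67, edgeR FDR 0.00366) and endocrine-like cells (log2 -6.35, edgeR FDR 5.46e-06). Within the immune-like class HES1 was uneven as well. The myeloid cluster 11 had 476 and 47.9 CPM, from 740 and 36 UMIs, and its value in primary pancreas 1 was above that of ductal-like cells there, whereas cluster 14 had 25.4 CPM and the lymphoid cluster 9 had 12.05 CPM in that library. Endocrine-like cells, in which a low HES1 level is the known state, thus had the lowest mean level of the 7 groups.

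HEY1, a target known for arterial endothelium, was at 32.6 and 40.4 CPM in endothelial-like cells and at 10.2 and 4.61 CPM in stellate-like cells, both higher than in ductal-like cells (log2 5.31, edgeR FDR 7.64e-06, and log2 2.75, edgeR FDR 0.00323). Ductal-like cells had 1.46 and 0.670 CPM, from 64 and 17 UMIs, and endocrine-like cells 2.37 and 0.694 CPM, from 4 and 59 UMIs. The ductal-like values were no higher than the endocrine-like values in either library. They were above the immune-like values of 0.859 and 0 CPM, from 5 and 0 UMIs. The ductal-like level was thus low, and whether it was background was not tested. PPDO held 38 and 58 UMIs, or 0.126 and 0.221 CPM. The call of a lower level in PPDO (log2 -2.21, SE 0.62, edgeR FDR 0.0437) thus starts from a low level. The HEY1 call was lost with the replicate block and with sums thinned to the smallest. The log2 fold change of HEY1 was -1.84 without PPDO 1, -2.71 without PPDO 2 and -1.41 without primary pancreas 1. Each of these fits leaves 1 library in a group, so its calls are not used.

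**Figure D3:**
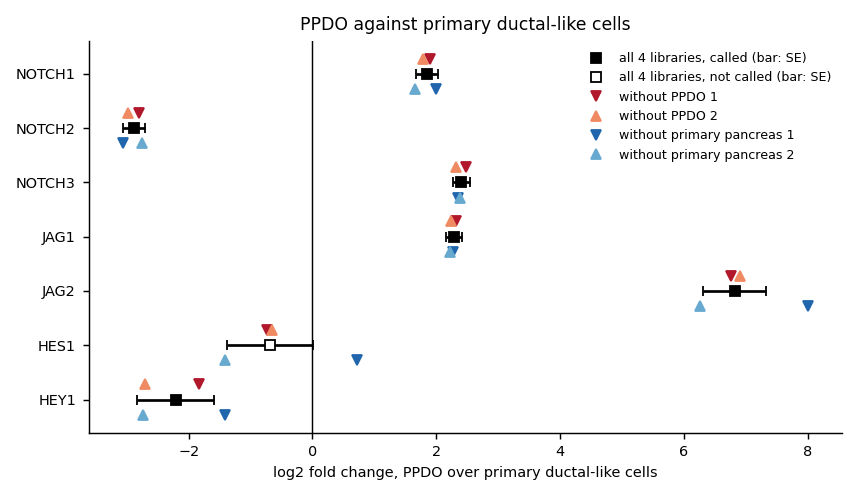
Log2 fold change of the 7 genes in PPDO over primary ductal-like cells, with the fit of all 4 libraries as squares (filled where the edgeR FDR was under 0.05, bar: SE) and the fits without each library as triangles. The triangles of NOTCH1, NOTCH2, NOTCH3 and JAG1 stay close to their squares, whereas those of HES1 fall on both sides of 0, at 0.72 and -1.41.

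In the primary tissue, the 5 other classes were compared with ductal-like cells of the same 2 animals, which asks where each part of the pathway is transcribed. Over all 16975 genes tested, 37.7% were called in endothelial-like (18.8% higher and 18.9% lower), 32.2% in stellate-like (16.9% and 15.4%), 42.4% in immune-like (19.5% and 22.9%), 26.0% in acinar-like (10.5% and 15.6%) and 34.3% in endocrine-like cells (17.8% and 16.5%). Endothelial-like cells had 3 members higher (JAG1, JAG2, HEY1) and 2 lower (NOTCH2, NOTCH3), and stellate-like cells 3 higher (NOTCH3, JAG1, HEY1) and 2 lower (NOTCH1, NOTCH2). Immune-like cells had 3 lower (NOTCH2, NOTCH3, HES1), and 0 were higher in edgeR or DESeq2, since all 7 differences were negative. In acinar-like cells JAG2 was higher and NOTCH1, NOTCH2, NOTCH3 and HES1 were lower, and in endocrine-like cells JAG2 was higher and the same 4 and JAG1 were lower.

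The acinar-like and endocrine-like fits depended on the scaling. In acinar-like cells 14 endocrine markers summed to 45512 CPM in primary pancreas 2 and to 174 CPM in primary pancreas 1, where the other non-endocrine classes of primary pancreas 2 had 7968 to 14555 CPM, and the part of this signal in the acinar-like values was not tested. In acinar-like cells, which had few UMIs of any member, the median of all genes was -0.47, with 1775 calls higher and 2642 lower. It moved to -1.84 with library totals alone (770 and 9611) and to 0.46 in DESeq2 (2698 and 1749), and RLE size factors gave 2291 and 1748. In endocrine-like cells library totals alone moved the split from 3014 and 2809 to 1737 and 6546 and the median to -0.88, and the 6 member calls there were all kept in their direction with library totals alone. The NOTCH1 call in stellate-like cells (log2 -1.79, edgeR FDR 0.0288) was lost under 5 of 9 alternatives, with FDR up to 0.288. In acinar-like cells the HES1 call was lost without the library term (FDR 0.143 in edgeR).

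Shares of cells with a UMI were compared after each cell was thinned to 3000 UMIs, since the median depth over barcodes was 35310 and 35127 UMIs in the PPDO libraries and that of ductal-like cells 17317.5 and 20558.5 UMIs. Thinning left out 61 and 10 PPDO cells and 231 ductal-like cells of primary pancreas 1 as too shallow. NOTCH1 was found in 29.96% ± 0.293 of PPDO cells and 15.2% ± 0.893 of ductal-like cells (SD, n = 2 libraries each). For NOTCH2 the shares were 16.3% ± 0.347 and 78.9% ± 8.59, for NOTCH3 18.9% ± 0.021 and 5.02% ± 0.638, and for JAG1 23.2% ± 0.057 and 8.23% ± 0.748. JAG2 was found in 5.81% ± 0.473 and 0.0902% ± 0.0085. These 5 genes did not overlap between the groups, nor did HEY1. The exact permutation test (two-sided) gave p = 0.333 for each, the smallest value that 2 against 2 libraries allow. Overlap was looked up for the members alone, and the share over all genes was not computed. The lack of overlap is thus not read as a result about the members. HES1 overlapped, at 22.8% and 19.8% in PPDO against 46.0% and 21.0% in ductal-like cells (exact permutation p = 0.667). For classes with little of a gene, NOTCH2 was found in 1.17% and 2.27% of endothelial-like cells, and NOTCH3 in 0.0454% of endocrine-like cells of primary pancreas 2. The insulin gene INS, known from endocrine cells, was also found in other classes. It made up 37.8% and 52.8% of the UMIs of endocrine-like cells and 0.0103% and 0.775% of the UMIs of ductal-like, 0.01396% and 1.04% of endothelial-like and 0.0154% and 4.46% of acinar-like cells. It was thus higher in primary pancreas 2, and its relation to the NOTCH shares was not tested. No background share can be given for PPDO, which has no class that should lack these genes.

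Without thinning the shares in PPDO were 87.9% for NOTCH1, 75.0% for NOTCH2, 78.6% for NOTCH3, 81.2% for JAG1, 42.7% for JAG2 and 66.9% for HES1. These are separate shares, and the share of cells with all of them at full depth was not computed. HEY1 was found in 0.428% and 0.7496% of PPDO cells at full depth, where the thinned shares of 0.0227% and 0.0273% rested on 2 cells in each library.

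Receptor and ligand were also looked for in the same cell. Doublets were not removed from PPDO and free RNA was not corrected; their part in shares with both was not tested. After thinning, 51.4% and 51.7% of PPDO cells had a UMI of NOTCH1, NOTCH2 or NOTCH3, 27.7% and 27.2% had a UMI of JAG1 or JAG2, and 15.02% and 14.63% had both. The product of the separate shares would give 14.2% and 14.1%, close to the overlap found. Most UMIs of a cell are left out by thinning, so this cannot show whether the genes are expressed together. Here, alone means that no UMI of the other kind was drawn, not that the cell lacks it. In ductal-like cells JAG1 was found in 7.70% and 8.75% after thinning and in 30.5% and 38.3% at full depth. Ductal-like cells were mostly receptor alone, at 72.6% and 79.4%, and ligand alone was found in 1.59% and 1.01%. Endothelial-like cells had ligand without NOTCH1, NOTCH2 or NOTCH3 in 37.0% and 48.9%, and 1 of these receptors without ligand in 8.26% and 7.20%. The endothelial receptor NOTCH4, which is not counted in these shares, was found in 32.2% and 47.3% of endothelial-like cells and in at most 1.37% of cells of the other classes compared and PPDO. With NOTCH4 among the receptors, a choice added after the data were seen, ligand alone made up 25.6% and 28.4% of endothelial-like cells, receptor alone 22.4% and 23.5%, and both 19.5% and 32.6%. Stellate-like cells had the highest shares with both, at 29.3% and 66.7%, the latter of 48 cells.

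**Figure D4:**
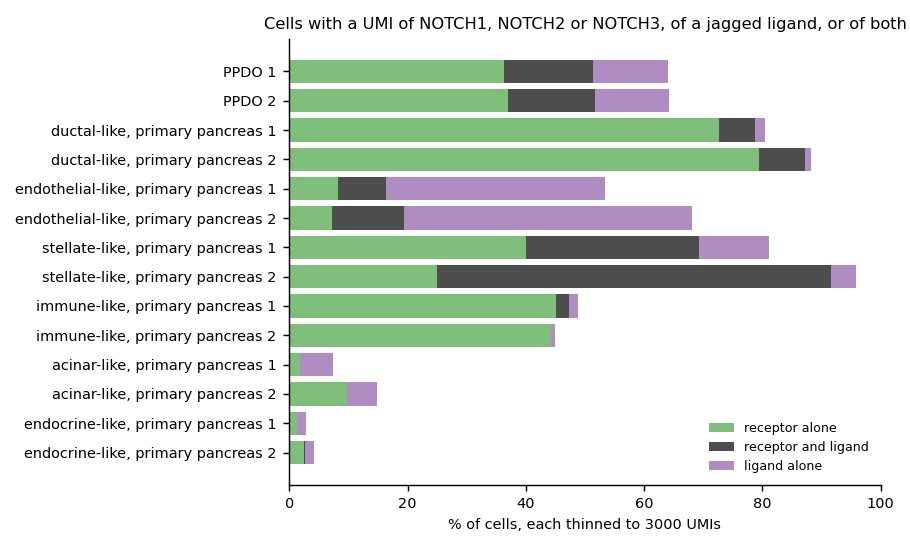
Share of cells (%, each cell thinned to 3000 UMIs) with a UMI of a receptor (NOTCH1, NOTCH2 or NOTCH3, without NOTCH4) alone, of a receptor and a jagged ligand, or of a ligand alone, with a bar for each library and class. Alone means that no UMI of the other kind was drawn at this depth. Receptor alone made up 72.6% and 79.4% of ductal-like cells and 36.4% and 37.1% of PPDO cells, whereas ligand without these 3 receptors made up 37.0% and 48.9% of endothelial-like cells and 25.6% and 28.4% once NOTCH4 was counted.

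Within PPDO the cells fell into 10 clusters with at least 20 cells in each library, which are called by their leading genes and were not tested against each other. The smallest of them was low in the receptors. Cluster 9, with 36 and 91 cells, was led by S100A8, KRT1, KRTDAP and IVL, genes known from the outer layers of keratinizing epithelium. NOTCH1 was at 17.1 and 25.1 CPM there, NOTCH2 at 10.7 and 4.39 CPM and NOTCH3 at 10.7 and 21.9 CPM, from 5 to 40 UMIs each. At resolution 1.0, where a cluster with the same leading genes held 42 and 101 cells, the lowest values over all clusters were 14.1 and 38.3 CPM for NOTCH1, 8.83 and 7.11 CPM for NOTCH2 and 12.4 and 30.1 CPM for NOTCH3. The JAG1 level of cluster 9, 6.42 and 16.9 CPM from 3 and 27 UMIs, did not hold, since no cluster was then below 31.8 and 29.5 CPM. JAG2 had 0 and 2 UMIs in cluster 9. HES1, at 89.9 and 102 CPM, lay near the level of all PPDO cells. The median depth of cluster 9, 13454 UMIs, was also the lowest of the 10, and its part in these levels was not tested.

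Cluster 3, led by GPNMB, PIK3C2G and the keratin gene KRT15, was at the other end. It had the highest NOTCH1 (192 and 199 CPM), NOTCH3 (101 and 115 CPM) and JAG1 (149 and 168 CPM) in both libraries, and a median depth of 44695.5 UMIs. After thinning 64.5% and 68.3% of its cells had a receptor UMI, against 8.33% and 8.79% in cluster 9. Cluster 8, led by SPP1, WFDC2 and MMP7, held 231 and 160 cells. Its NOTCH1, at 50.7 and 73.2 CPM, lay near the ductal-like 52.7 and 48.5 CPM. NOTCH2 (55.3 and 78.4 CPM), NOTCH3 (49.6 and 70.5 CPM) and JAG1 (72.7 and 122 CPM) stayed apart from the ductal-like values there, without a test. HES1 of cluster 8, at 102 and 113 CPM, lay between the ductal-like values of 318 and 84.2 CPM.

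JAG2 did not follow JAG1. It was highest in cluster 0, led by CXCL14, HMCN1 and LGR6, at 37.9 and 31.1 CPM, and in cluster 7, led by the DNA replication genes DTL, MCM3 and MCM6, at 36.9 and 28.3 CPM. In cluster 5, led by the epidermal genes SPINK5, KLK7 and DSG1, it fell to 3.70 and 1.84 CPM. Cluster 5 at the same time had the highest NOTCH2, at 98.2 and 109.7 CPM, and a NOTCH3 level second to cluster 3 alone, at 96.8 CPM in PPDO 1. The highest NOTCH2 value of PPDO thus still lay far below both ductal-like values.

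HES1 was lowest in cluster 4, led by ADM, EGLN1 and BNIP3, genes known from low oxygen, at 34.1 and 33.6 CPM. JAG1 at 40.8 and 39.6 CPM and JAG2 at 2.56 and 7.02 CPM were low there as well. The cluster held 1211 cells of PPDO 1 and 207 of PPDO 2 at a median depth of 19192 UMIs, and the part of depth in these levels was not tested. HES1 was highest in cluster 6, led by the mitotic genes CENPF and TOP2A, at 135 and 127 CPM. HEY1 stayed at or below 0.847 CPM in every cluster.

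**Figure D5:**
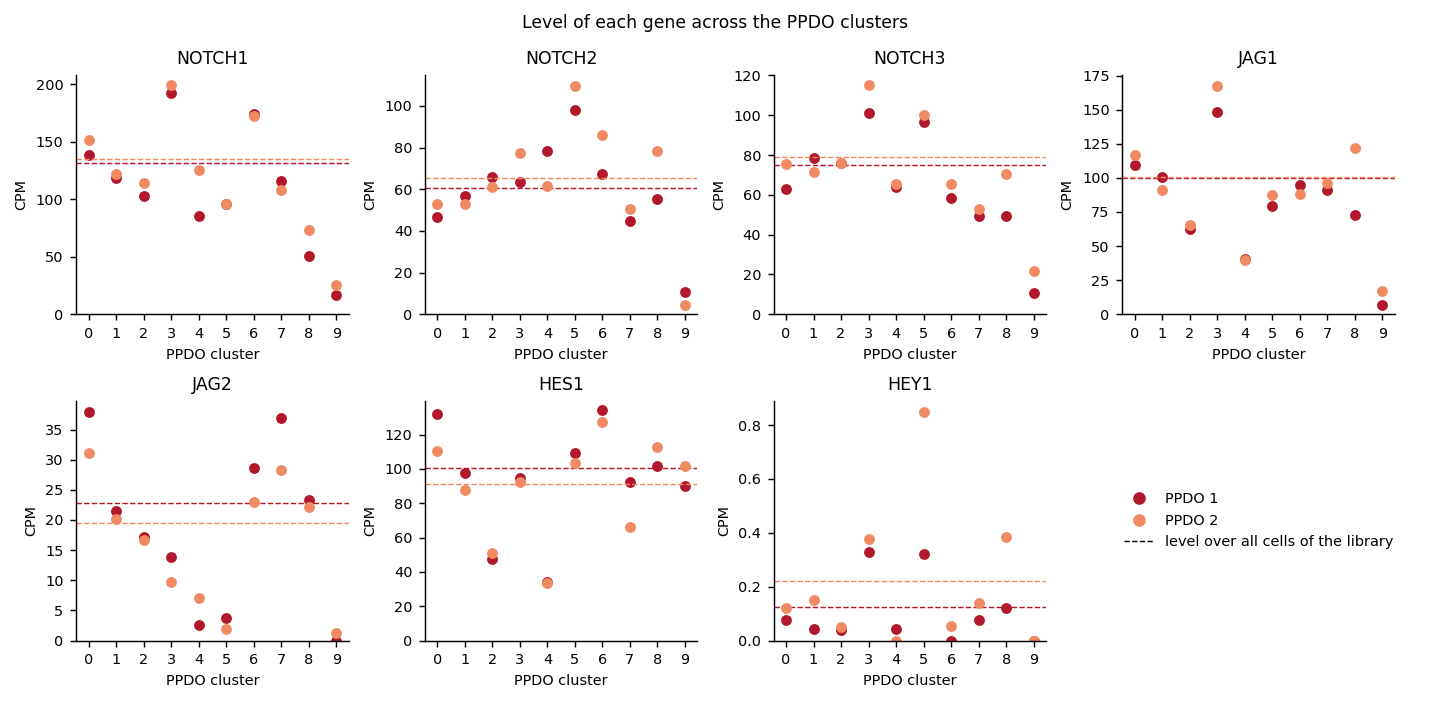
Level (CPM, linear axes from 0) of the 7 genes in 10 PPDO clusters, with a point for each library and a dashed line for the level over all cells of that library. NOTCH1, NOTCH2 and NOTCH3 were lowest in cluster 9, as was JAG1 from 3 and 27 UMIs, JAG2 was low in clusters 4, 5 and 9, and HES1 was lowest in cluster 4.

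The rest of the pathway was described from a list of 42 genes, of which 41 were tested between PPDO and ductal-like cells. There were 15 higher and 12 lower at edgeR FDR 0.05, where 43.7% of all genes were called (22.8% higher and 20.9% lower). These shares over all genes also apply to the count of each part of the list below. The median log2 fold change was 0.23 against 0.00675 for all genes. With library totals alone the counts were 9 higher and 14 lower and the median was -0.25, so the balance of the list depended on the scaling. Of 5 other ligands and relatives 2 were higher and 2 lower. DLL1 was higher (log2 2.92) at 6.46 and 11.7 CPM in PPDO, and DLL3 was lower (log2 -1.38) at 0.714 and 0.495 CPM. DLL4, a ligand of arterial endothelium, was not called (log2 -1.26, edgeR FDR 0.370), and DLK2, a non-canonical relative, was higher (log2 4.99). Its relative DLK1 was lower (log2 -2.05, edgeR FDR 0.0302), at no more than 0.433 CPM in any of these 4 libraries. The receptor NOTCH4 was called lower (log2 -1.31, edgeR FDR 0.0324) at 0.714 and 0.812 CPM in PPDO against 2.75 and 2.41 CPM in ductal-like cells. Immune-like cells had 2.23 and 6.71 CPM and endocrine-like cells 2.37 and 1.98 CPM. Stellate-like (0.749 and 0 CPM) and acinar-like cells (0 and 0.983 CPM) had less. The ductal-like level was thus low, and whether it was background was not tested.

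Of 8 genes for receptor cleavage, 3 were higher and 1 was lower. The protease gene ADAM17 (log2 1.12) and the γ-secretase subunit genes APH1B (log2 1.09) and PSENEN (log2 0.51) were higher, and the γ-secretase gene PSEN2 was lower (log2 -1.13). Of 4 genes of the nuclear complex, the co-activator genes moved apart, with MAML3 higher (log2 1.09) and MAML2 lower (log2 -1.76, from 1123 and 1563 to 293 and 278 CPM). RBPJ, the DNA-binding partner, was called higher by edgeR at log2 0.44 and was at -0.02 when library totals alone set the scale. The calls of RBPJ, APH1B and PSENEN were lost under that scaling.

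Of 7 further target genes, HES2, HES6 (log2 1.37) and NRARP (log2 2.10) were higher, and HEY2 and HES4 (log2 -1.35) were lower. NRARP, a target that feeds back on the pathway, was at 19.5 and 12.1 CPM in PPDO and 6.19 and 3.55 CPM in ductal-like cells. Of 11 genes for turnover and trafficking, 4 were higher and 5 lower, and with library totals alone 1 was higher and 5 lower. The E3 ligase genes DTX1 (log2 -7.68, from 30.1 and 37.9 to 0.1495 and 0.0877 CPM) and NEURL1 (log2 -4.98, from 115 and 130 to 2.70 and 2.94 CPM) and the ligand relative DLK2 had the largest changes of the list in size. DTX4 (log2 -2.73) and ITCH (log2 -1.62) were lower too, and DTX2 (log2 2.42) was higher. The endocytosis regulators NUMB (log2 0.87) and NUMBL (log2 0.99) and the ligand-activating ligase gene MIB1 (log2 0.47) were called higher, and these 3 calls were lost with library totals alone.

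Among the primary classes, 38 genes of the list were tested against ductal-like cells. Endothelial-like cells had 11 higher and 9 lower, stellate-like 6 and 5, immune-like 10 and 7, acinar-like 5 and 6, and endocrine-like 8 and 10, where the backgrounds given for all genes apply. With library totals alone the counts were 3 and 25 in acinar-like and 1 and 17 in endocrine-like cells. They were then 6 and 2 in stellate-like, 6 and 7 in immune-like and 10 and 8 in endothelial-like cells. The balance thus depended on the scaling in the classes other than endothelial-like cells. NOTCH4, the receptor of endothelium, was at 124 and 209 CPM in endothelial-like cells (log2 6.02, SE 0.43, edgeR FDR 3.89e-07), and DLL4 was at 105 and 104 CPM (log2 6.28, SE 0.69, edgeR FDR 7.92e-06). NOTCH4 had at most 6.71 CPM and DLL4 at most 3.26 CPM in every other class compared and in PPDO.

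HEYL and HEY2, targets of the same family as HEY1 that were singled out after their values were seen, were, like NOTCH3, highest in the stellate-like class among those compared. HEYL was at 102 and 115 CPM there and at 0.364 and 0.158 CPM in ductal-like cells (log2 8.39, SE 0.51, edgeR FDR 3.33e-07). HEY2 was at 59.8 and 149.7 CPM in stellate-like cells, 10.6 and 3.42 CPM in endothelial-like cells and 1.503 and 2.64 CPM in ductal-like cells (stellate-like against ductal-like edgeR FDR 4.23e-05). In PPDO, where NOTCH3 was higher than in ductal-like cells, HEY2 was lower at 0.130 and 0.141 CPM and HEYL was not called at 1.68 and 0.591 CPM (edgeR FDR 0.0536). The lower call of HEY2 in PPDO starts from a low level in ductal-like cells. A relation of NOTCH3 to these targets was not tested. HEYL was also at 22.2 and 51.1 CPM in acinar-like cells, from 34 and 104 UMIs, where NOTCH3 had 1 and 0 UMIs.

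The genes most like each member over 14 sums (PPDO and 6 classes in each library) were found by Pearson's r of log2(CPM + 1) over 6084 genes, as a description without a test, since sums of a library share its depth and handling. The closest were PRELID1 for NOTCH1 (r = 0.955), CD164 for NOTCH2 (r = 0.9497), CDH3 for NOTCH3 (r = 0.948), GPX8 for JAG1 (r = 0.969), SOX7 for JAG2 (r = 0.930), FOSL2 for HES1 (r = 0.921) and RASGRF2 for HEY1 (r = 0.980). Next came HK1 and PPP4R1 for NOTCH1, DOCK5 and ARHGAP12 for NOTCH2, AJUBA and ANTXR1 for NOTCH3, EHD2 and SEMA3F for JAG1, CAVIN2 and CTNNBIP1 for JAG2, TGFBR2 and EEPD1 for HES1, and AQP1 and ERG for HEY1.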

How the data were processed

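Live pig cells were profiled by the authors with the 10x Chromium 3' v3.1 kit, and UMIs were counted with Cell Ranger on an in-house pig annotation. The submitters' processing notes list the builds GRCh38 and Sscrofa11.1. What the authors deposited are UMI counts without normalization, taken before the SoupX correction that the study applied later. Barcode and feature names came in deposited files of their own, with the unit other.

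Features of each gene were summed, 8 transgene features were left out, and the limits of the study on mitochondrial share and features were applied to cells, on the assumption that replicate numbers of the titles are its sample numbers, with the higher minimum of 1000 features for both PPDO libraries. Scrublet, run through Scanpy 1.11.5, removed 89 and 154 primary cells, and no doublets were removed from PPDO. Primary cells and PPDO cells were clustered separately (2000 variable genes without the members and pathway genes, 20 components, 15 neighbours, Leiden resolution 0.5, leidenalg 0.10.2). The neighbour search was changed from approximate to exact after first results were seen, because the approximate search did not repeat, and cluster borders, the small acinar-like class and the NOTCH2 call in immune-like cells moved with that change. A class needed 3 markers, each in at least 10% of cells and at least 2 times above the other clusters. A cluster stayed unnamed if its median depth times 3 was below that of its library and no marker was among its 10 leading genes, or if another class had more markers among them. This left 273 and 244 primary cells (4.81% and 5.73%) out of every class. JUN, KRT19, MUC1, PRSS1, S100B and KRT14 of the lists were not matched.

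Sums per library were tested with edgeR 4.0.16 (TMM, filterByExpr, glmQLFTest, Benjamini-Hochberg FDR at 0.05 over all genes), with library as a term between primary classes. The SE was the absolute log2 fold change divided by the square root of F. The spread was between libraries of single animals or lines. In data simulated for PPDO against ductal-like cells at a dispersion of 0.1, edgeR recovered 71% of 4-fold and 2% of 2-fold changes, with 1 false call among 23811 genes. For endothelial-like against ductal-like cells it recovered 53.6% and 2.25%, with 3 false calls among 16039 genes. Every simulated gene had the same dispersion and few genes were changed. These rates therefore cannot be carried over to the real fit, where 43.7% of genes were called. The biological coefficient of variation was 0.303. Cell intervals and limits cover counting error only. Sums of fewer than 20 cells were not used.

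The members and lists were chosen with earlier results of these data known. Named were all members, DLL1, DLL3, DLL4 and NOTCH4, pathway genes called with at least 10 CPM in a group, and the 3 genes most like each member. A few pathway genes outside this rule (HES2, HEY2, HEYL, DLK1), cluster leading genes and markers were named after their values were seen. Alternatives were RLE factors, DESeq2 1.42.0, no filter, left-out libraries, the replicate block, base features, thinned sums, doublets kept, resolution 1.0, a fit of all sums and, added after seeing the data, library totals alone, primary cells scaled within library, ductal-like cells without cluster 0 and NOTCH4 among the receptors.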

Additional observations from a re-analysis of the deposited data

Results flagged for a closer look

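Schwann-like cells entered no comparison, because 345 of them were in primary pancreas 1 and 1 in primary pancreas 2, and 6 of the 7 genes were above 3 UMIs in them, the limit that a count of 0 allows. They had 190.5 CPM of HES1, 124 CPM of NOTCH2, 60.9 CPM of NOTCH1, 40.5 CPM of JAG1, 28.0 CPM of HEY1 and 5.92 CPM of NOTCH3, and no UMI of JAG2. The class was uneven, since cluster 17, with CDH19, APOE and SCN7A among its leading genes, held 191 of these cells and 560 of the 579 HES1 UMIs. HEY1 lay between the endothelial-like value of 32.6 CPM and the stellate-like value of 10.2 CPM of the same library. There is no second library to set beside these values, and no test was made.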

How the results depend on the processing

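NOTCH1, NOTCH2, NOTCH3, JAG1 and JAG2 kept their direction and their call between PPDO and ductal-like cells under 16 of 16 alternatives tested. HEY1 lost its call under 5 of 16. The fits without a library are among these 16, and their calls are description only. The members called lower in PPDO went from 2 to 1 with the replicate block and with sums thinned to the smallest, and ranged from 1 to 3 without a library. Genes called ranged from 4683 to 10658 without a library, pathway genes called higher from 6 to 14 and lower from 6 to 13, the low ends being fits without PPDO 1 or PPDO 2. Replicate numbers showed no pairing of PPDO with primary samples (r = -0.0019 between their deviations over 8749 genes, across genes). The block left 8469 genes called and changed no member's call other than that of HEY1. HES1 ranged from -1.41 without primary pancreas 2 to 0.72 without primary pancreas 1 and was at 0.40 without cluster 0, and its share difference turned from -12.2 to 0.344 percentage points without primary pancreas 1 (lowest -24.7 without primary pancreas 2). Each fit without a library leaves 1 library in a group, so its spread rests on the other group alone and its counts are description only.

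With library totals alone 9 pathway genes were higher in PPDO and 10381 genes were called in acinar-like cells. Members lower than in ductal-like cells numbered 2 in acinar-like cells with scaling within library (NOTCH1 and NOTCH3 were lost), 1 in stellate-like cells with RLE, DESeq2, base features, library totals or no replicate block, and 1 in immune-like cells with RLE or scaling within library. Uncalled differences that turned were JAG1 in acinar-like cells (0.10 with RLE, 0.12 in DESeq2), HES1 in stellate-like cells (0.11 with RLE, 0.18 in DESeq2, 0.048 with library totals) and HEY1 in acinar-like cells (-0.28 with library totals). The causes were not tested.

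At resolution 1.0 the highest NOTCH2 level over PPDO clusters became 122 CPM and the lowest JAG1 level 29.5 CPM, while JAG2 ran from 0.923 to 42.8 CPM and HES1 from 32.6 to 162 CPM. Ductal-like clusters with at least 50 cells in each library did not exist, so that alternative gave no value. Class differences within a single library leave no residual degrees of freedom and are values without a test, and among them only HEY1 and JAG1 in acinar-like cells and HES1 and JAG2 in stellate-like cells, none of which was called, differed in sign between the libraries.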
